A study of Mus musculus with 24 samples.

Results

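The matrix metalloproteinases (MMPs), the ADAMTS proteases and the tissue inhibitors of metalloproteinases (TIMPs) were measured by mRNA sequencing of mouse kidney. The members were all symbols of the count table of the form Mmp with a number, Adamts with a number, and Timp1, Timp2, Timp3 and Timp4, taken by symbol. They came to 46 of 23955 symbols, of which 23 were Mmp, 19 Adamts and 4 Timp genes. The 24 libraries fell into 6 groups of 4: PLD4-/- kidneys (KO) and PLD4+/+ kidneys (WT), each taken as day 0 controls or after unilateral ureteral obstruction (UUO) lasting to day 5 or day 10. Pld4 encodes a transmembrane exonuclease of the phospholipase D family, and UUO blocks the outflow of 1 kidney and is a standard model of kidney fibrosis. The labels name the genotype but not the deleted part of the gene, the strain, the sex or the age, and do not say whether each library is a separate mouse, so p-values measure the spread between these libraries.

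MMPs are zinc-dependent proteases, mostly secreted as inactive proenzymes, that cleave collagens, proteoglycans, elastin and many non-matrix proteins. ADAMTS proteases are secreted relatives with thrombospondin repeats that trim procollagens, cleave large proteoglycans or act on fibrillin microfibrils. TIMPs bind the active site of MMPs and of some ADAMTS enzymes, and in the fibrotic kidney the transcripts of both proteases and inhibitors are known to change.

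Total counts per library lay between 9800888 and 22542866. Levels in CPM (counts scaled to a common library total) used edgeR's TMM factors. Pld4 itself was present in every library labelled KO, at a mean of 9.48 CPM in KO and 6.69 CPM in WT at day 0, 20.3 in KO and 48.3 in WT at day 5, and 37.3 in KO and 81.5 in WT at day 10 (log2 difference at day 10 -1.13 ± 0.27 (SE), adjusted p = 0.0331 by edgeR). The kidney label was borne out by proximal tubule markers, which summed to 10977 to 18166 CPM at day 0, but WT day 10 replicates 2 and 3 stood apart. Their proximal tubule sums were 148 and 616 CPM, against 1858 to 7359 CPM in the other 14 obstructed libraries. Their neutrophil marker sums were 3937 and 6541 CPM, against at most 26.9 CPM in each of the other 22 libraries. Member calls at WT day 10 that were lost without them, and member values that then moved by over 1.5 times, are therefore given with and without them. In bulk tissue, fewer cells of a type and less RNA per cell cannot be told apart.

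Of the 46 members, 36 passed the filter on low counts and were tested (18 Mmp, 15 Adamts and 3 Timp). Fold changes are log2 values ± SE between groups of 4 libraries, and "higher", "lower", "rose" and "fell" mean an adjusted p under 0.05 in edgeR's quasi-likelihood test, adjusted over 15080 genes. The counting is not stated to use strand, and by GENCODE M21 10 members share exon sequence with another gene of the count table on the opposite strand. These are Timp3, Timp4, Mmp11, Mmp12, Mmp1b, Mmp19, Mmp24, Mmp28, Adamts4 and Adamts7. For them reads of both genes may have been mixed, most of all where the partner had more counts than the member over all libraries (for example BC029722 with 14949 against 460 for Mmp24, and Chchd10 with 80081 against 10600 for Mmp11).

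The TIMPs responded in opposite directions to obstruction. Timp1, the inducible soluble inhibitor, rose most, Timp2 rose moderately, and Timp3, the inhibitor bound to the extracellular matrix and the most abundant member in the normal kidney, fell. Timp1 had 1.89, 1.19, 0.685 and 1.09 CPM in KO day 0 libraries, against 0.346, 0.595, 0.269 and 0.172 CPM in WT day 0 libraries. At day 5 it had 29.6, 32.0, 58.5 and 20.3 CPM in KO and 28.4, 24.2, 44.0 and 23.5 CPM in WT. By day 10 the values were 22.9, 31.8, 54.5 and 34.0 CPM in KO, against 50.3, 1385, 197 and 33.2 CPM in WT. The obstructed groups lay above day 0 without overlap, and only WT day 10 replicates 2 and 3 went beyond the range of the other obstructed libraries. The change against day 0 in KO was 4.85 ± 0.93 at day 5 and 4.88 ± 0.93 at day 10 (adjusted p = 4.02e-04 and 2.11e-04 by edgeR). In WT it was 6.40 ± 1.09 and 10.20 ± 1.16 (6.59e-05 and 2.65e-07). Leaving out WT day 10 replicates 2 and 3 gave 6.91 there (adjusted p = 1.10e-09 by edgeR).

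Timp2, which inhibits MMPs and also serves as the adaptor through which MMP14 activates proMMP2, had 167, 189, 222 and 187 CPM in KO day 5 libraries and 120, 177, 128 and 168 CPM in WT day 5 libraries. At day 0 it had 56.8, 80.9, 46.8 and 62.4 CPM in KO and 33.5, 48.5, 53.9 and 46.2 CPM in WT. The day 10 values were 221, 245, 235 and 170 CPM in KO and 197, 207, 192 and 163 CPM in WT. No obstructed library overlapped day 0 of its genotype. The change was 1.63 ± 0.18 at day 5 and 1.82 ± 0.18 at day 10 in KO, and 1.70 ± 0.18 and 2.06 ± 0.18 in WT.

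Timp3 had 2709, 2054, 2697 and 2796 CPM in KO day 0 libraries and 3922, 3307, 2920 and 3148 CPM in WT day 0 libraries. It had 1008, 1518, 1613 and 1863 CPM in KO and 1094, 975, 657 and 2150 CPM in WT at day 5. The day 10 values were 1386, 991, 1008 and 1396 CPM in KO, against 823, 480, 556 and 1657 CPM in WT. All obstructed libraries lay below day 0 of their genotype, with KO day 5 replicate 4 closest to it. Timp3 fell in KO by 1.10 ± 0.35 at day 10 (adjusted p = 0.0116), and in WT by 1.45 ± 0.35 at the earlier and 1.92 ± 0.36 at the later day (0.00178 and 8.61e-05 by edgeR). The KO call at day 10 was lost in all 3 fits of FPKM values (-0.48 in each, adjusted p between 0.185 and 0.294 by limma). In KO at day 5 the value was -0.77 ± 0.35 with an adjusted p of 0.0819. With WT day 10 replicates 2 and 3 left out, the WT day 10 change was -1.40 (adjusted p = 0.00378 by edgeR). Proximal tubule markers fell in the same libraries, with sums of 1858 to 6607 CPM in the obstructed KO libraries, against 10977 to 16089 CPM in KO at day 0. Their part in the Timp3 change was not tested. Timp4, the fourth inhibitor, did not pass the filter, with 0 to 7 counts per library.

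**Figure D1:**
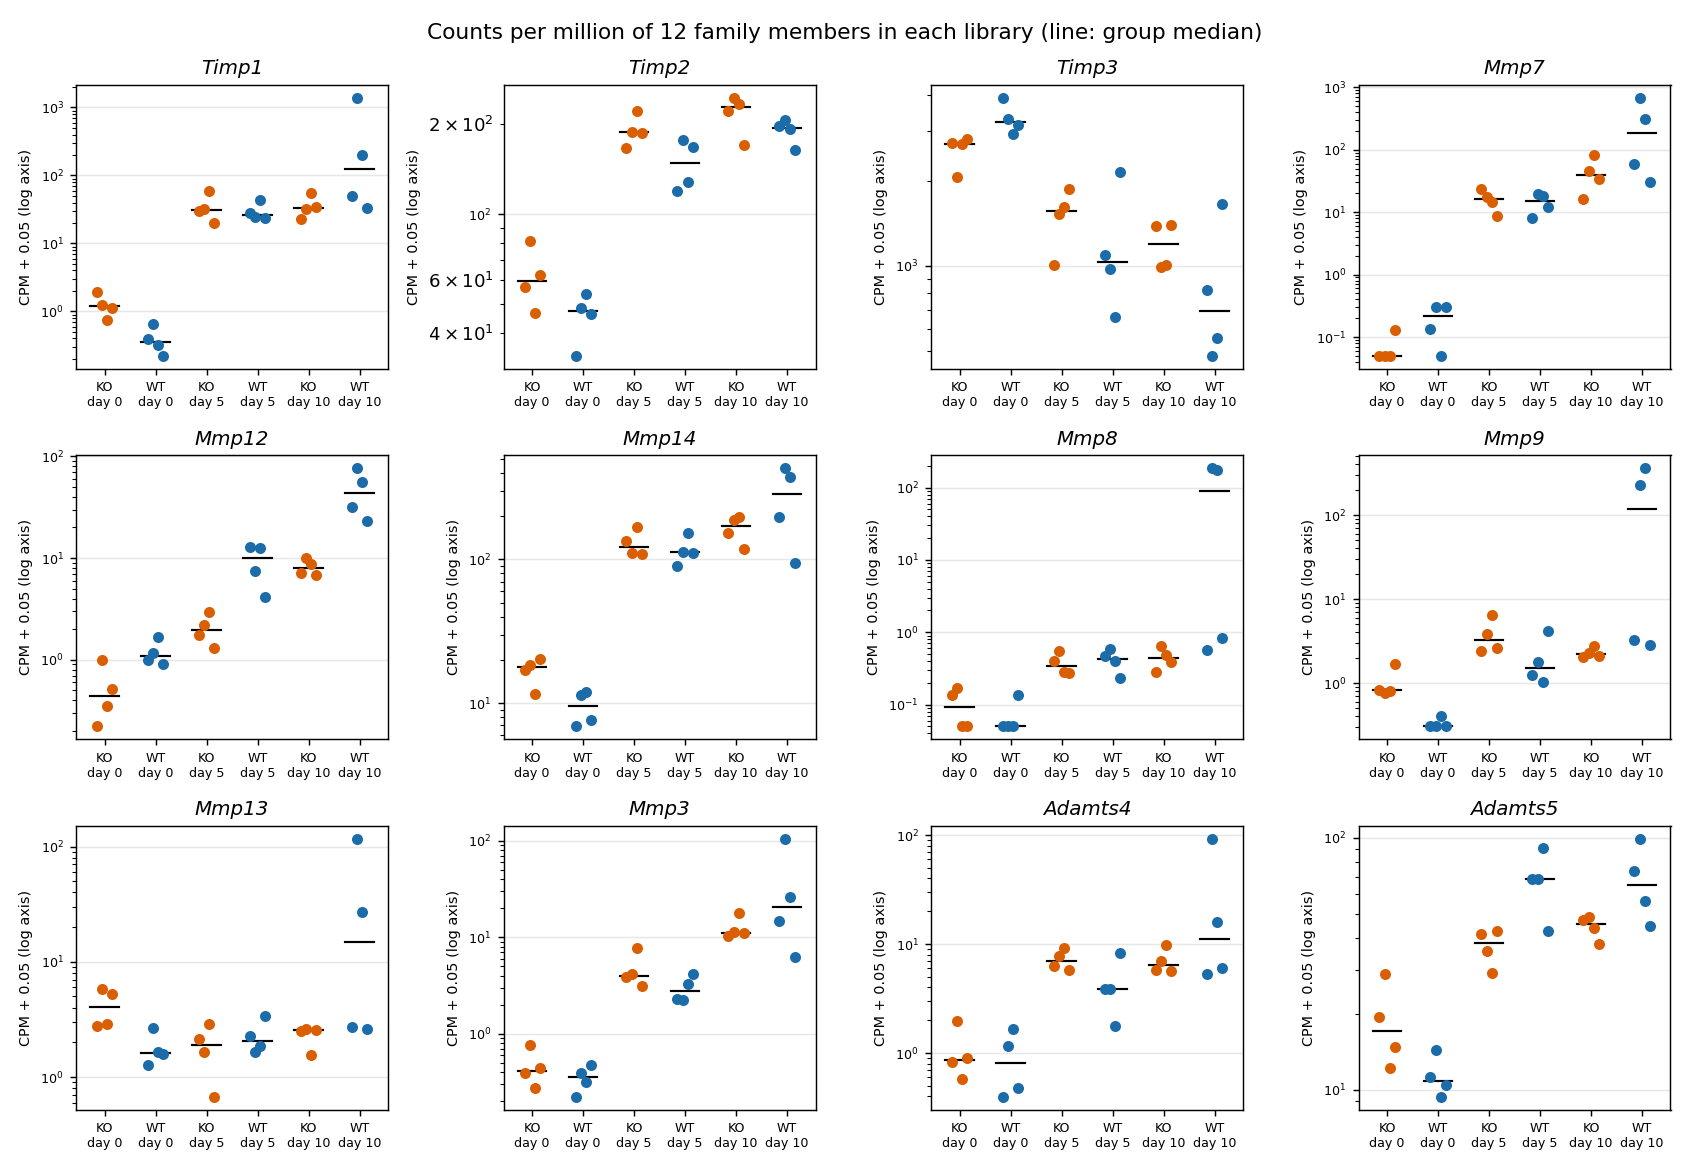
CPM plus 0.05 on a log axis for 12 members in each library, KO in orange and WT in blue at day 0, day 5 and day 10, with a line at the group median. Timp1 and Mmp7 lie far above day 0 in every obstructed library, Timp3 lies below it, Mmp8, Mmp9 and Mmp13 reach high values in WT day 10 replicates 2 and 3 only, and Mmp12 is lower in KO than in WT at both obstructed days.

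Obstruction raised most of the family in both genotypes. At day 5, 24 of the 36 tested members passed the threshold in KO (23 higher, 1 lower), where 39.5% of all genes tested passed, and 27 passed in WT (25 higher, 2 lower), where 56.6% of all genes passed. At day 10, 27 passed in KO (25 higher, 2 lower), against a background of 54.3%, and 33 in WT (31 higher, 2 lower), against 68.1%. Libraries of the obstructed and day 0 groups did not overlap for 26 members in KO and 28 in WT at day 5 (39.6% and 53.1% of all genes), and for 30 in KO and 28 in WT at day 10 (56.6% and 61.4% of all genes). By direction, 63.9% of the tested members were higher in KO at day 5 and 69.4% in WT, where 22.4% and 31% of all genes were. At day 10, 69.4% were higher in KO and 86.1% in WT, where 28.3% and 37.8% of all genes were. Lower calls were made for 17% of all genes in KO and 25.6% in WT at day 5, and for 26% in KO and 30.3% in WT at day 10. The median change of the members was 1.61 in KO and 2.34 in WT at day 5, and 1.86 in KO and 2.76 in WT at day 10, where the median over all genes lay between 0.01 and 0.12. The values at day 5 and day 10 share their day 0 libraries.

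At day 5, 23 members passed in the same direction in both genotypes, which is 95.8% of the 24 called in KO and 85.2% of the 27 called in WT, where over all genes it was 83.9% of the KO calls and 58.5% of the WT calls. At day 10 it was 26 members, 96.3% of the 27 called in KO and 78.8% of the 33 called in WT, where over all genes it was 91% and 72.6%. Several calls were lost when a single library was left out. In WT at day 5 they were Mmp17 (0.51 to 0.81 without KO day 0 replicates 1, 2 or 3, any WT day 0 library, or WT day 5 replicates 2 or 4), Mmp25 (1.52 to 2.27 without any WT day 0 library or WT day 5 replicates 1 or 4) and Adamts8 (-1.15, -1.17 and -1.13 without WT day 0 replicate 3, WT day 5 replicate 2 or WT day 5 replicate 3). In WT at day 10 they were Adamts6 (0.45 to 0.49 without WT day 0 replicates 2 or 4 or WT day 10 replicate 2), Adamts8 (-1.01 without WT day 10 replicate 3) and Adamts17 (1.63 without WT day 10 replicate 1). In KO they were Adamts6 at day 5 (-0.54 without KO day 0 replicate 4), Adamts10 at day 5 (0.88 without KO day 0 replicate 4, 0.70 without KO day 5 replicate 1), Adamts16 at day 5 (1.87 to 2.0 without KO day 0 replicates 2 or 3 or KO day 5 replicate 1) and Adamts15 at day 10 (-0.61 to -0.83 without KO day 0 replicates 1, 2 or 3 or any KO day 10 library). In all 3 fits of FPKM values Adamts6 in KO at day 5 (-0.10 to -0.07) and Adamts15 in KO at day 10 (-0.04 to -0.01) did not pass. In the 2 fits of log2(FPKM + 1) Mmp12 in KO (0.45) and Adamts4 (0.75) and Adamts12 (0.43) in WT did not pass at day 5. Without WT day 10 replicates 2 and 3, 30 of 38 tested members passed in WT at day 10, where 56.4% of all genes did. The calls lost were those of Mmp13, Mmp15, Adamts6, Adamts8 and Adamts14, and Mmp15 was then at 0.68 (adjusted p = 0.0668) and Adamts6 at 0.41 (0.164 by edgeR). Mmp25 (5.07), Adamts16 (3.34) and Adamts17 (2.83) were then at 2.97, 4.29 and 3.71 and kept their calls.

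**Figure D2:**
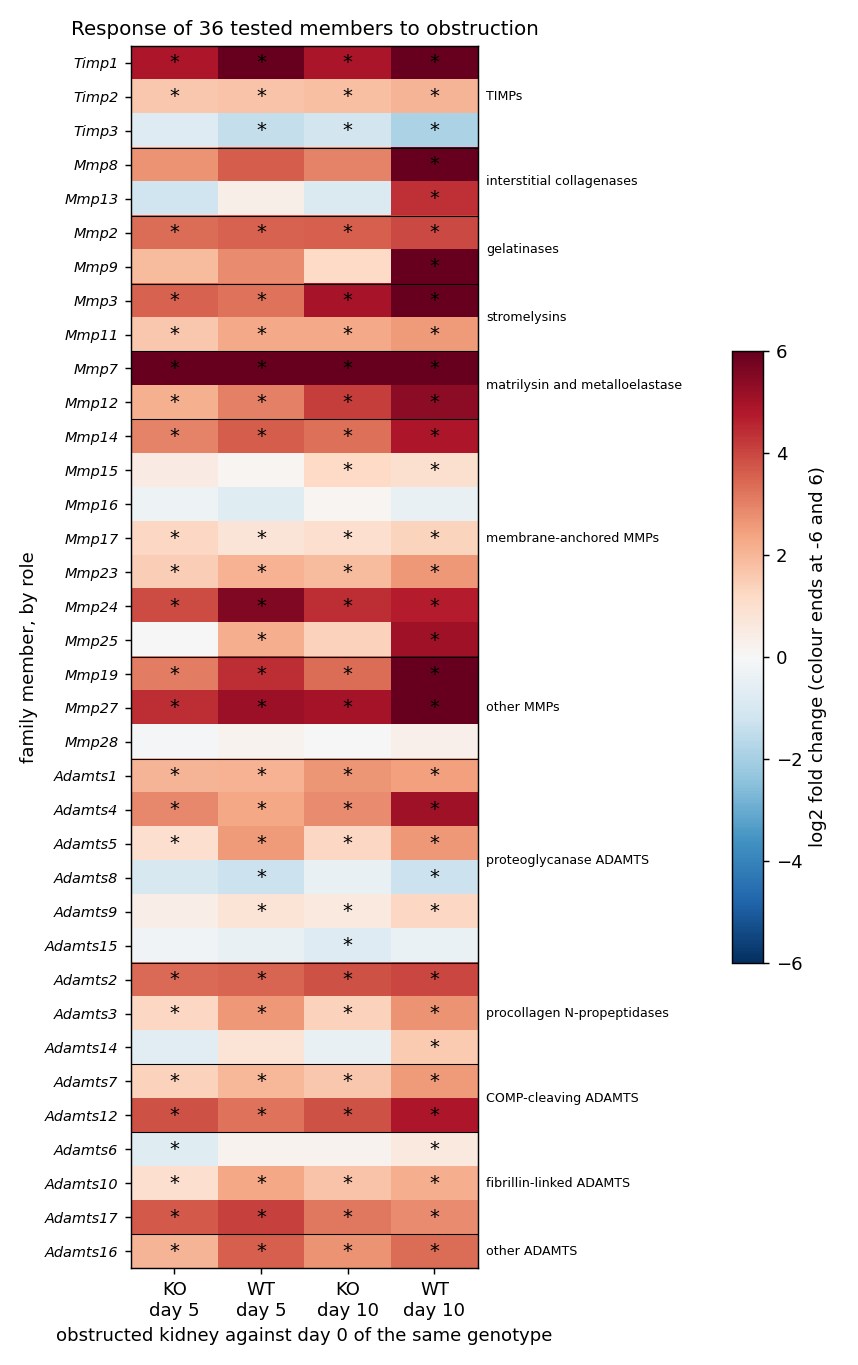
Log2 fold change of each obstructed group over day 0 of the same genotype for the 36 tested members, grouped by role, in KO and WT at day 5 and at day 10. Asterisks mark an adjusted p under 0.05, and the colour scale ends at -6 and 6. Most rows are red in all columns, while Timp3, Adamts8 and Adamts15 are blue. Other rows are blue in some columns, such as Mmp13 at both days in KO and Adamts6 at day 5 in KO.

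Among the secreted MMPs, the gelatinase Mmp2, which cleaves denatured collagen and basement membrane collagen, had 51.1, 65.9, 75.0 and 65.9 CPM in KO and 33.2, 65.7, 42.1 and 60.8 CPM in WT at day 5. It had 74.7, 92.8, 80.3 and 54.9 CPM in KO and 67.7, 92.6, 63.9 and 50.6 CPM in WT at day 10, against 4.65 to 8.26 CPM in KO and 3.78 to 5.10 CPM in WT at day 0. Its groups at day 5 and day 10 overlapped between the genotypes and stood clear of day 0, with changes of 3.36 ± 0.24 (day 5) and 3.59 ± 0.24 (day 10) in KO and 3.54 ± 0.25 and 3.98 ± 0.25 in WT. Mmp14, the membrane-anchored collagenase MT1-MMP that activates proMMP2, had 134, 111, 169 and 108 CPM in KO and 90.7, 113, 152 and 110 CPM in WT at day 5. At day 10 Mmp14 had 152, 188, 196 and 119 CPM in KO, against 199, 431, 375 and 95 CPM in WT. Day 0 libraries had 11.6 to 20.3 CPM in KO and 6.83 to 11.9 CPM in WT. Mmp14 rose by 2.96 ± 0.35 and 3.28 ± 0.36 in KO at day 5 and day 10, and by 3.63 ± 0.36 and 4.87 ± 0.38 in WT, where the day 10 value was 3.99 without replicates 2 and 3.

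Mmp7 (matrilysin), a small MMP known from injured tubular epithelium, was near absent at day 0 and high after obstruction. In KO it had 1 count in all 4 day 0 libraries together, against 7 in WT. At day 5 it had 23.2, 17.4, 14.6 and 8.77 CPM in KO and 8.08, 19.2, 18 and 12.1 CPM in WT. Day 10 libraries had 16.2, 45.4, 81.2 and 33.5 CPM in KO, against 59.3, 678, 314 and 30.5 CPM in WT. All obstructed libraries of both genotypes lay above all day 0 libraries, and the KO and WT ranges overlapped at each obstructed day. Over pooled counts, scaled for depth, the ratio to day 0 in KO was 735 at day 5 (95% counting interval 132 to 29055) and 2062 at day 10 (370 to 81452), intervals that cover counting error only. In WT Mmp7 rose by 6.49 ± 1.10 at day 5 and by 10.73 ± 1.10 at day 10 (8.16 without replicates 2 and 3).

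Mmp12 (metalloelastase), the elastin-cleaving MMP of macrophages, had 0.172, 0.955, 0.305 and 0.468 CPM in KO and 0.951, 1.11, 1.61 and 0.859 CPM in WT at day 0. At day 5 it had 1.69, 2.15, 2.89 and 1.24 CPM in KO, against 12.9, 7.49, 12.5 and 4.14 CPM in WT. Day 10 libraries had 7.05, 9.91, 8.76 and 6.72 CPM in KO, against 31.9, 76.1, 55.4 and 23 CPM in WT. Over day 0 it rose at day 5 and day 10 by 2.15 ± 0.52 and 4.17 ± 0.50 in KO and by 3.02 ± 0.44 and 5.36 ± 0.46 in WT (4.62 at day 10 without replicates 2 and 3). The KO libraries at day 10 lay within the range of the WT libraries at day 5. Mmp3 (stromelysin-1), which cleaves proteoglycans and activates other proMMPs, had 3.79, 4.14, 7.68 and 3.06 CPM in KO and 2.26, 2.18, 3.25 and 4.14 CPM in WT at day 5. Day 10 values were 10.2, 11.2, 17.9 and 10.9 CPM in KO and 14.8, 105, 25.8 and 6.14 CPM in WT, and no day 0 library exceeded 0.716 CPM. Mmp3 rose by 3.52 ± 0.74 and 4.95 ± 0.73 in KO and by 3.26 ± 0.78 and 6.93 ± 0.77 in WT, with 5.11 in WT at day 10 without replicates 2 and 3. Mmp11 (stromelysin-3) was also higher at both days in both genotypes, by 1.59 to 2.56.

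The 2 tested interstitial collagenases and the gelatinase Mmp9 behaved differently from these. Mmp8, the collagenase of neutrophil granules, had 0.226 to 0.590 CPM in the obstructed KO libraries and 0.182 to 0.794 CPM in the obstructed WT libraries other than WT day 10 replicates 2 and 3, which had 184 and 176 CPM. Mmp9, also known from neutrophils and macrophages, had 2.0 to 6.38 CPM in the obstructed KO libraries, against 0.968 to 4.14 CPM in the obstructed WT libraries other than those replicates, which had 229 and 359 CPM. Mmp13 (collagenase-3) had 0.623 to 2.83 CPM in the obstructed KO libraries and 1.59 to 3.36 CPM in the obstructed WT libraries other than those replicates, which had 117 and 27.0 CPM. Day 0 libraries held at most 0.119 CPM of Mmp8, 1.64 CPM of Mmp9 and 5.73 CPM of Mmp13, each in KO. All 3 were higher than day 0 in WT at day 10 (Mmp9 by 9.0 ± 1.36, Mmp13 by 4.40 ± 0.88, and Mmp8 at a pooled count ratio of 3972 with an interval of 713 to 156904), and none passed in the other comparisons with day 0. Without replicates 2 and 3 the pooled ratio of Mmp8 was 30 (4.92 to 1229), and the fitted WT day 10 values were 4.50 for Mmp8, 3.40 for Mmp9 and 0.59 for Mmp13 (adjusted p = 1.35e-04, 3.53e-05 and 0.262 by edgeR). In the other comparisons the pooled ratio of Mmp8 was 7.57 (1.87 to 66.2) in KO at day 5 and 9.18 (2.31 to 79.5) in KO at day 10. It was 16.4 (2.69 to 674) in WT at day 5, and these intervals cover counting error only. For Mmp9, all obstructed libraries lay above day 0 of their genotype.

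Of the 7 membrane-anchored MMPs, 4 were higher at day 5 in KO and 5 in WT, and 5 were higher at day 10 in KO and 6 in WT (5 without replicates 2 and 3, when Mmp15 did not pass). Mmp24 (MT5-MMP) had 3 pooled counts in KO and 2 in WT at day 0 and 76 to 164 in each obstructed group, with pooled ratios of 16.7 (95% counting interval 5.49 to 82.6) at day 5 and 24 (8.01 to 118) at day 10 in KO, and 53.8 (14.7 to 448) and 31.8 (8.57 to 266) in WT. Mmp23, anchored by its amino terminus, rose by 1.46 ± 0.23 and 1.90 ± 0.23 in KO and by 2.11 ± 0.24 and 2.61 ± 0.24 in WT. Mmp16 (MT3-MMP) passed in none of the 4 comparisons. Of the remaining MMPs tested, Mmp19 rose by 3.08 ± 0.63 and 3.35 ± 0.63 in KO and by 4.41 ± 0.72 and 6.82 ± 0.73 in WT (4.84 at day 10 without replicates 2 and 3), and Mmp28 (epilysin) passed in none. Mmp27 had 1 count per genotype at day 0 and pooled ratios of 29.0 (4.93 to 1169) and 43.3 (7.5 to 1735) in KO and 46.6 (8.10 to 1866) and 120 (21.4 to 4778) in WT, where the day 10 ratio was 59.9 (10.3 to 2413) without replicates 2 and 3.

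Of the 46 members, 10 form a cluster on chromosome 9 by RefSeq, with 3 other annotated genes between them: Mmp13, Mmp12, Mmp1b, Mmp3, Mmp1a, Mmp10, Mmp8, Mmp27, Mmp20 and Mmp7, in this order. Promoter windows from 250 bases before to 50 bases after the annotated start (RefSeq, GRCm38.p6) were found for 32 members. In them the letters TGANTCA, the consensus of the AP-1 transcription factors (Fos and Jun families) and its own reverse complement, occurred for 8 of the 10 cluster genes and for none of the 22 other members, against 8.97% of all 27025 genes with a window. Each of the 8 also held TATAAA on either strand, which cannot overlap TGANTCA, a combination found in 1.84% of all genes with a window. Mmp8 held TATAAA alone and Mmp27 held neither. The stretches from 100 bases before to 30 bases after the start are shown for Mmp13, Mmp12, Mmp3, Mmp10 and Mmp7. Mmp1b, Mmp1a and Mmp20 also hold the match and are not shown. Both motifs are in capitals, and all stretches are on the plus strand of GRCm38.p6 (Mmp13 at chr9:7272414-7272543, Mmp12 at chr9:7347274-7347403, Mmp3 at chr9:7445722-7445851, Mmp10 at chr9:7502242-7502371 and Mmp7 at chr9:7691990-7692119).
Mmp13: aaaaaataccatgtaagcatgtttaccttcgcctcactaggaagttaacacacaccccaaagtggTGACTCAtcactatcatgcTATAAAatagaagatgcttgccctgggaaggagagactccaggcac
Mmp12: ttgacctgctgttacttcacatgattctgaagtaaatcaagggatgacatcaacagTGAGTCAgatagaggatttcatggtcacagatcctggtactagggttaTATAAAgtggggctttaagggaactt
Mmp3: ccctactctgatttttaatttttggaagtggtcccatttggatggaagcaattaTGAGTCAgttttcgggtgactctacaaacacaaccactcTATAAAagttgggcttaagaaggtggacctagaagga
Mmp10: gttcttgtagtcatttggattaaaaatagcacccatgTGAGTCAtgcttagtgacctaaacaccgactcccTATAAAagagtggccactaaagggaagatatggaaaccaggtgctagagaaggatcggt
Mmp7: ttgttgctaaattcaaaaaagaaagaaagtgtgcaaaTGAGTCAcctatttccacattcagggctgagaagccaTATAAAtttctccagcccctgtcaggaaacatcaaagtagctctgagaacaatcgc

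In these stretches the first base of TGANTCA lay 35 bases before the start in Mmp13, 44 in Mmp12, 46 in Mmp3 and 63 in Mmp10 and Mmp7. Mmp12 and Mmp7 each have another annotated start, whose window held neither motif. The match is a description of letters, and binding was not measured. The transcripts of the AP-1 factors themselves were measured: all 8 listed (among them Jun, Junb, Fosl2 and Atf3) were higher than day 0 in each of the 4 comparisons, and their median change was 2.34 in KO and 3.33 in WT at day 5, and 3.59 in KO and 3.97 in WT at day 10. Of all genes, 22.4% were higher in KO and 31% in WT at day 5, and 28.3% in KO and 37.8% in WT at day 10. Atf3 rose by 2.86 ± 0.38 and 3.90 ± 0.39 in KO and by 4.24 ± 0.42 and 4.08 ± 0.41 in WT. On leaving out WT day 10 replicates 2 and 3, 7 of the 8 were higher in WT at day 10, with a median of 3.01. In KO against WT none of the 8 passed at day 0, day 5 or day 10. Mmp10 (stromelysin-2), a cluster gene under the count filter, had 0 counts in all 8 day 0 libraries, 14 pooled counts in KO and 17 in WT at day 5, and 15 in KO and 1166 in WT at day 10. Of the 1166, 1105 were in WT day 10 replicate 2 (56.1 CPM) and 46 in replicate 3. Against a floor of 3 counts over the day 0 group, its ratio at day 10 was 3.28 in KO and 235 in WT (5.76 without replicates 2 and 3). These ratios leave out the counting error of the obstructed libraries.

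**Figure D3:**
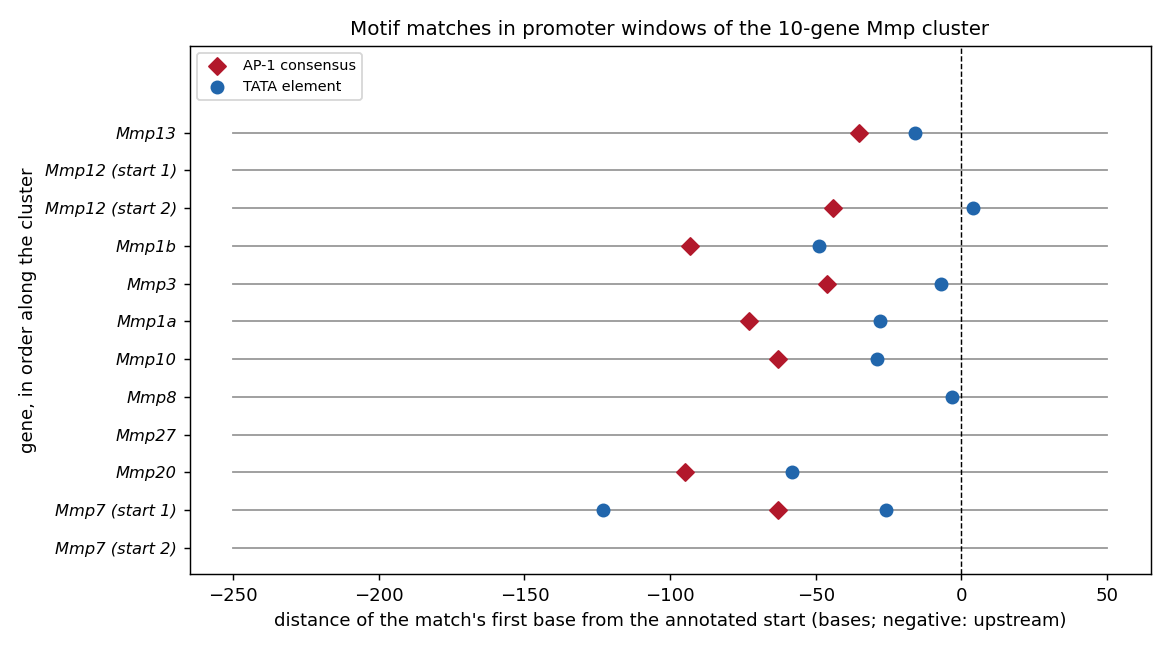
Distance in bases from the annotated start of the first base of each AP-1 consensus match (diamonds) and each TATA match (circles) in the promoter windows of the 10 cluster genes, 1 line per annotated start in genome order. Of the 10 genes, 8 have an AP-1 match, 35 to 95 bases before the start, and the same 8 and Mmp8 have a TATA match.

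The other cluster genes under the filter were near absent. Mmp20 (enamelysin, known from developing teeth) had 0 counts at day 0. It had 23 pooled counts in KO and 35 in WT at day 5, and 28 in KO and 32 in WT at day 10. Against the same floor the ratios at day 5 and day 10 were 5.04 and 6.12 in KO and 7.66 and 6.45 in WT. They too leave out the counting error of the obstructed libraries. Mmp1a and Mmp1b, mouse relatives of the human interstitial collagenase, had 0 and 2 counts in all libraries. Outside the cluster, Mmp21 had at most 2 counts per library, Adamts13 (the protease of von Willebrand factor) at most 9, Adamts18 at most 13 and Adamts20 at most 11, and Adamts19 had 0 in all 24.

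ADAMTS genes of collagen processing and proteoglycan cleavage differed in their response. Adamts2, the main procollagen N-propeptidase, had 50.7, 47.1, 62.3 and 61.4 CPM in KO and 41.9, 56.6, 48.4 and 59.0 CPM in WT at day 5. Day 10 libraries had 73.4, 85.3, 81.7 and 60.2 CPM in KO and 72.7, 109, 64.2 and 48.4 CPM in WT, against 3.81 to 6.68 CPM in KO and 3.80 to 6.19 CPM in WT at day 0. The 2 genotypes overlapped at every day, and Adamts2 had the lowest adjusted p of all members in each comparison with day 0 (3.38 ± 0.23 and 3.82 ± 0.24 in KO, 3.47 ± 0.23 and 3.99 ± 0.24 in WT). Adamts3, a relative that also processes procollagen, rose by 1.23 ± 0.30 and 1.40 ± 0.30 in KO and by 2.60 ± 0.32 and 2.69 ± 0.32 in WT. Adamts14, the third procollagen N-propeptidase, passed only in WT at day 10, with 1.55 ± 0.43 and with 0.80 (adjusted p = 0.0815) without replicates 2 and 3 by edgeR.

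Adamts1, an early-response protease of versican and aggrecan, was the ADAMTS gene with the highest FPKM in every group. It had 236, 160, 196 and 291 CPM in KO and 224, 216, 251 and 251 CPM in WT at day 5, and 329, 404, 316 and 276 CPM in KO and 310, 281, 338 and 259 CPM in WT at day 10. Day 0 libraries had 39.4 to 68.0 CPM in KO and 45.3 to 72.2 CPM in WT, below every obstructed library. The change was 2.06 ± 0.20 and 2.65 ± 0.20 in KO and 2.11 ± 0.20 and 2.44 ± 0.20 in WT. Adamts4, an aggrecanase, had 6.30, 7.73, 9.09 and 5.77 CPM in KO and 3.80, 3.83, 1.73 and 8.23 CPM in WT at day 5. At day 10 it had 5.76, 6.96, 9.73 and 5.58 CPM in KO, against 5.26, 92.4, 16 and 5.93 CPM in WT, while day 0 libraries had 0.533 to 1.91 CPM in KO and 0.346 to 1.61 CPM in WT. Adamts4 rose by 2.88 ± 0.79 and 2.84 ± 0.79 in KO and by 2.34 ± 0.79 and 5.09 ± 0.82 in WT (2.70 in WT at day 10 without replicates 2 and 3). The WT call at day 5 was lost on leaving out either WT day 0 replicate 1 (2.08) or WT day 5 replicate 4 (1.88).

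Adamts5, the main aggrecanase of mouse cartilage, had 41.3, 35.3, 28.9 and 42.6 CPM in KO, against 68.5, 68.2, 90.7 and 42.5 CPM in WT, at day 5. It had 47.1, 48.5, 43.9 and 37.9 CPM in KO, against 74.0, 98.8, 56.0 and 44.7 CPM in WT, at day 10. At day 0 it had 19.3, 28.6, 12.2 and 14.7 CPM in KO and 11.2, 14.4, 9.33 and 10.4 CPM in WT. KO lay toward the upper side of WT at day 0 and toward the lower side at both obstructed days, with overlap at each. Adamts5 rose by 0.99 ± 0.26 and 1.25 ± 0.26 in KO and by 2.57 ± 0.27 and 2.59 ± 0.27 in WT. Among the other tested proteoglycan-cleaving members, Adamts9 rose by 0.58 in KO at day 10. In WT it rose by 0.80 at day 5 and by 1.24 at day 10 (0.97 without replicates 2 and 3), and it did not pass in KO at day 5. Adamts8 and Adamts15 moved the other way. Adamts15 fell in KO by 0.78 ± 0.31 at day 10, and Adamts8 fell in WT by 1.31 ± 0.46 at day 5 and by 1.3 ± 0.46 at day 10 (-0.85, adjusted p = 0.160, without replicates 2 and 3). Adamts7 and Adamts12, which cleave cartilage oligomeric matrix protein, were higher in all 4 comparisons (Adamts7 by 1.38 to 2.55 and Adamts12 by 3.26 to 4.83, the highest in WT at day 10, where it was 3.67 without replicates 2 and 3). Adamts10 and Adamts17, linked to fibrillin microfibrils, and Adamts16 were also higher in each.

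Levels of different members were compared per transcript length, on the deposited FPKM scale. At day 0 the summed FPKM of the MMPs was 13.7 ± 2.65 in KO and 7.89 ± 1.84 in WT (SD, n = 4), while the TIMP sum was 321 ± 51.0 in KO and 363 ± 24.3 in WT. The MMP sum was 114 ± 20.4 in KO and 95 ± 16.1 in WT at day 5, and 185 ± 59.4 in KO and 542 ± 501 in WT at day 10, where WT replicates 1 and 4 had 219 and 104 and replicates 2 and 3 had 1210 and 634. The TIMP sum was 359 ± 76.9 in KO and 271 ± 103 in WT at day 5, and 319 ± 15.1 in KO and 660 ± 706 in WT at day 10, where WT replicates 1 to 4 had 259, 1718, 327 and 335. The MMP sum divided by the TIMP sum was 0.0438 ± 0.0121 in KO and 0.0220 ± 0.00625 in WT at day 0, 0.331 ± 0.0965 in KO and 0.389 ± 0.160 in WT at day 5, and 0.581 ± 0.195 in KO and 0.949 ± 0.697 in WT at day 10. At day 10 the ratio in single libraries was 0.415, 0.714, 0.783 and 0.413 in KO and 0.843, 0.705, 1.94 and 0.310 in WT, and these ranges overlapped.

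The makeup of each sum changed with obstruction. Timp3 made up 96.5% ± 1.27 of the TIMP FPKM in KO and 98.1% ± 0.539 in WT at day 0 (SD, n = 4), then 75.4% ± 5.90 in KO and 73.0% ± 10.9 in WT at day 5, and 69.4% ± 7.89 in KO and 42.3% ± 33.1 in WT at day 10. Timp1 was under 1% in every day 0 library and 13.8% ± 5.53 in KO and 46.8% ± 37.3 in WT at day 10, with 23.1, 92.4, 61.4 and 10.4% in WT replicates 1 to 4. Timp3 in those libraries made up 58.5, 4.90, 26.6 and 79.4%. Mmp14 held 27.3% ± 2.07 of the MMP FPKM in KO and 23.7% ± 2.64 in WT at day 0, and 38.5% ± 3.74 in KO and 38.6% ± 4.25 in WT at day 5. Mmp7 held 14.8% ± 4.66 in KO and 14.0% ± 2.88 in WT at day 5, and 25.6% ± 10.0 in KO and 41.1% ± 14.9 in WT at day 10 (29.2, 59.6, 46.9 and 28.7% in replicates 1 to 4). Shares are relative, so a lower share does not show a lower level.

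**Figure D4:**
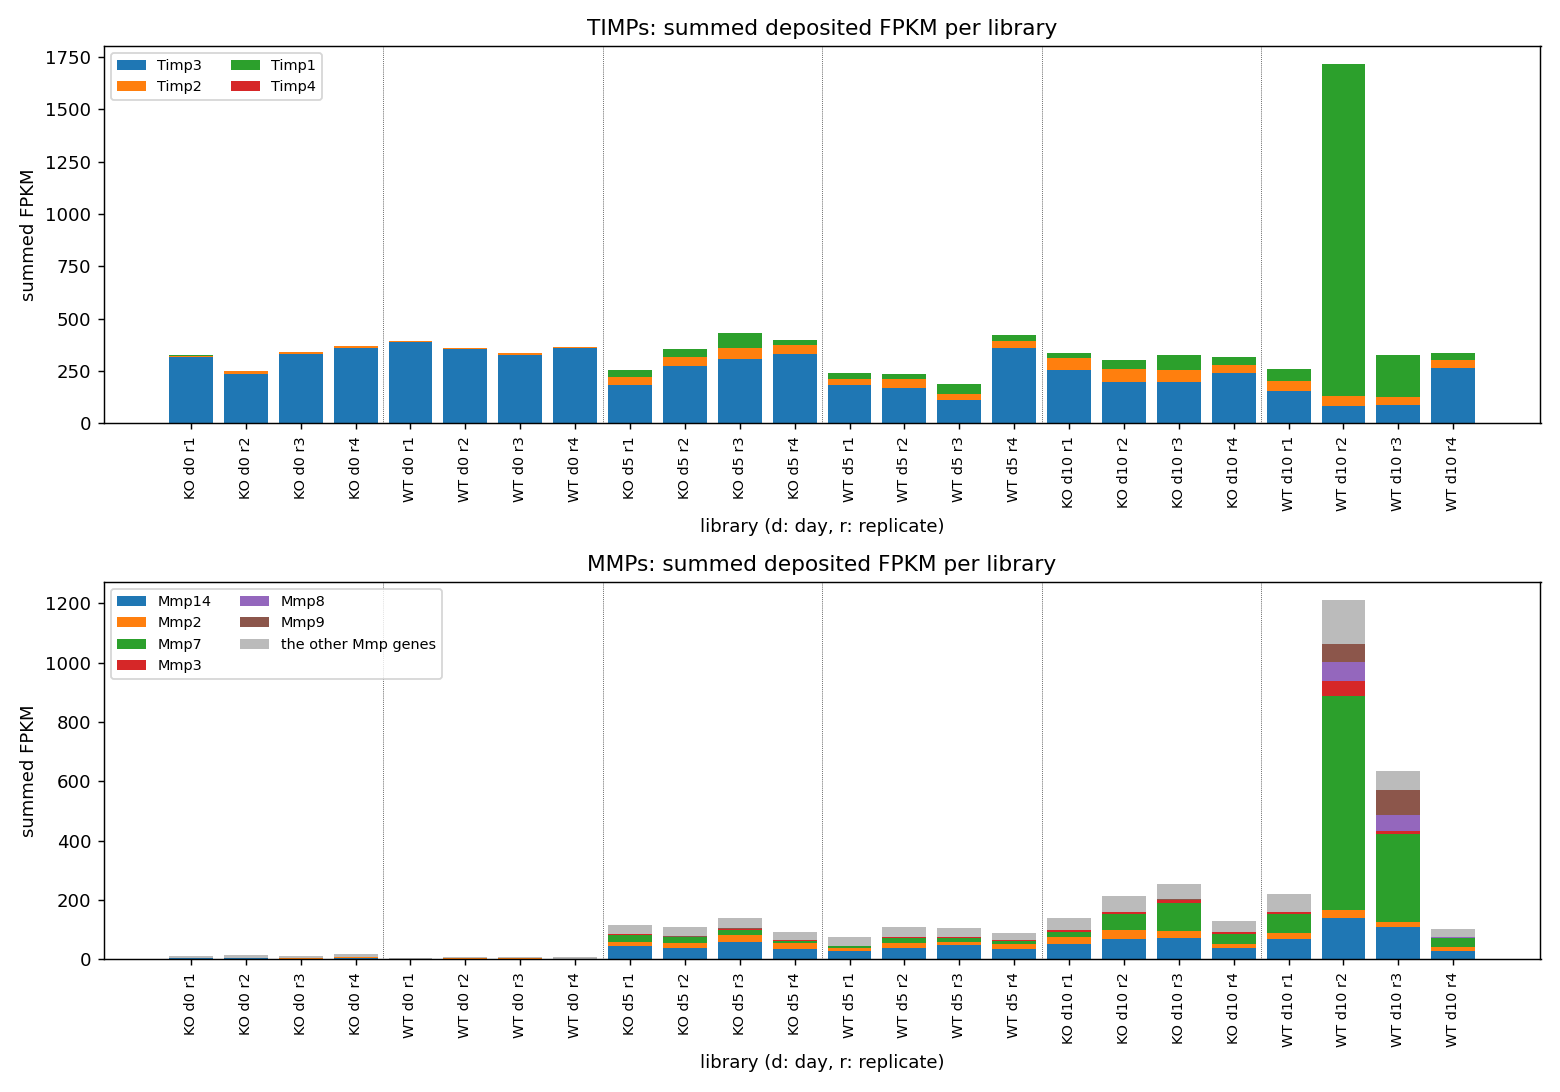
Summed deposited FPKM of the TIMP genes (top) and of the MMP genes (bottom) in each of the 24 libraries, as stacked bars that start at 0, ordered by day with KO left of WT. Timp3 fills the TIMP bar at day 0, and WT day 10 replicate 2 has the tallest bar in both panels (1718 for TIMPs, 1210 for MMPs).

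KO and WT kidneys were compared at each day. At day 0 none of the 36 tested members passed with edgeR, where 4.18% of all genes tested did (3.65% higher and 0.531% lower in KO), and 12 had an unadjusted p under 0.05 (DESeq2 called 1). Here and in the later comparisons, the share of all genes under the unadjusted cut or called by DESeq2 is not given. Those counts therefore do not show a shift of the members beyond that of other genes. The median member value was 0.55, where the median of all genes was 0.01. Libraries of 9 members did not overlap between the genotypes (8 above and Timp3 below WT), where 19.6% of all genes did not. Leaving out WT day 0 replicate 2, WT day 10 replicate 1 or WT day 10 replicate 3 gave 1 call. In the fit without WT day 10 replicates 2 and 3, 5 of 38 tested members were higher in KO at day 0, where 8.33% of all genes passed and 7.04% were higher: Mmp25, a membrane-anchored MMP of leukocytes (2.57 ± 0.60), Mmp13 (1.23 ± 0.38), Adamts14 (1.08 ± 0.33), Mmp14 (0.85 ± 0.26) and Adamts7 (0.67 ± 0.21), with adjusted p between 0.00773 and 0.0482 by edgeR. Macrophage markers were higher in KO at day 0 too, with sums of 287 to 379 CPM in KO against 147 to 218 CPM in WT and 6 of 9 markers past the threshold. The marker sums of T cells (17.6 to 33 CPM in KO, 3.40 to 7.73 CPM in WT, 5 of 5 markers higher), endothelium (350 to 468 CPM in KO, 212 to 288 CPM in WT, 0 of 6), neutrophils (3.73 to 5.97 CPM in KO, 1.46 to 3.32 CPM in WT, 0 of 5), tubular injury (30.8 to 48.1 CPM in KO, 14.4 to 25.9 CPM in WT, 1 of 5) and B and plasma cells (3.35 to 5.03 CPM in KO, 1.82 to 2.58 CPM in WT, 1 of 4) also lay higher in KO without overlap. Fibroblast marker sums overlapped (175 to 312 CPM in KO, 145 to 256 CPM in WT), with 2 of 7 markers higher in KO and 0 lower. The part of these markers in the member values was not tested.

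At day 5 Mmp12 was the 1 member of 36 past the threshold, lower in KO at -2.21 ± 0.40 on the log2 scale (adjusted p = 0.0184 by edgeR), where 0.146% of all genes passed (0.0663% higher and 0.0796% lower in KO). Mmp12 and 7 other members had an unadjusted p under 0.05. The highest KO library had 2.89 CPM and the lowest WT library 4.14 CPM, so the groups did not overlap, as for 1 other member (Adamts6) and 4.58% of all genes. The call was lost without KO day 5 replicate 2 (-2.24) or 4 (-2.06) and without WT day 5 replicate 1 (-2.03) or 3 (-2.05), when only these 2 groups were fitted (adjusted p = 0.0829), and in both fits of log2(FPKM + 1) (-0.98, 0.0957 and 0.161). The macrophage marker sums were 912 to 997 CPM in KO and 774 to 871 CPM in WT at day 5, and 0 of 9 macrophage markers passed. Single markers differed in direction. Mrc1 had 57, 47.6, 69.7 and 59.2 CPM in KO and 72.5, 69.7, 71.6 and 67.5 CPM in WT, and Cd163 had 0.525, 0.331, 1.24 and 0.679 CPM in KO and 2.14, 2.30, 0.898 and 2.36 CPM in WT. On the other side, Cx3cr1 had 52.6, 77.8, 57.3 and 63.6 CPM in KO and 39.0, 38.5, 37.0 and 49.6 CPM in WT. Emr1 had 64.4, 83.1, 84.4 and 153 CPM in KO and 39.0, 42.5, 28.6 and 64.2 CPM in WT. Only Cx3cr1 and Emr1 did not overlap between the genotypes. The part of these markers in the Mmp12 difference was not tested. Without WT day 5 replicate 4, 6 members passed at day 5, and Adamts5 was then among them at -1.06 (adjusted p = 0.0124 by edgeR).

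At day 10, 6 of the 36 tested members were lower in KO and none was higher, where 1.41% of all genes tested passed (0.139% higher and 1.27% lower in KO). They were the metalloelastase Mmp12 (-2.52 ± 0.38), the neutrophil collagenase Mmp8 (-7.79 ± 1.31), the gelatinase Mmp9 (-6.04 ± 1.07), the collagenase Mmp13 (-4.04 ± 0.84), the inhibitor Timp1 (-3.54 ± 0.78) and matrilysin Mmp7 (-2.62 ± 0.66). The adjusted p values by edgeR were 0.00384 for Mmp12, 0.00544 for Mmp8, 0.00776 for Mmp9, 0.0170 for Mmp13, 0.0222 for Timp1 and 0.0480 for Mmp7. With the replicate number as a block, Mmp12 and Mmp8 passed, and Mmp9 (-5.44, adjusted p = 0.0597), Mmp13 (-3.46, 0.0802), Timp1 (-2.77, 0.118) and Mmp7 (-2.19, 0.0972) did not. The median member value was -0.23, where the median of all genes was -0.02. Libraries of 4 members did not overlap (Mmp9, Mmp12 and Mmp13 below WT, Mmp28 above), where 3.36% of all genes did not.

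Of these 6, Mmp12 had all 4 WT libraries (23 to 76.1 CPM) above all 4 KO libraries (6.72 to 9.91 CPM) by more than the spread within KO. With WT day 10 replicates 2 and 3 left out it was the 1 member past the threshold, at -1.77 ± 0.36 (adjusted p = 0.0243 by edgeR), where 0.451% of all genes passed. The other 5 rested on those libraries: without both, the values were -0.71 for Mmp8, -0.42 for Mmp9, -0.22 for Mmp13, -0.23 for Timp1 and -0.04 for Mmp7, each with an adjusted p of 1.00. In WT day 10 replicates 1 and 4 the 5 genes had 0.521 and 0.794 CPM (Mmp8), 3.18 and 2.80 CPM (Mmp9), 2.65 and 2.54 CPM (Mmp13), 50.3 and 33.2 CPM (Timp1), and 59.3 and 30.5 CPM (Mmp7). The KO libraries spanned 0.235 to 0.590 CPM of Mmp8, 2.0 to 2.69 CPM of Mmp9, 1.51 to 2.54 CPM of Mmp13, 22.9 to 54.5 CPM of Timp1 and 16.2 to 81.2 CPM of Mmp7. All 5 neutrophil markers tested were lower in KO at day 10, with sums of 11.5 to 22.0 CPM in KO and of 26.9, 3937, 6541 and 25.8 CPM in WT replicates 1 to 4.

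Leaving out a single library also changed the day 10 calls. Without WT day 10 replicate 1 or replicate 4, 12 and 14 members passed. With KO day 10 replicates 1 to 4 left out in turn, 2, 3, 3 and 2 did, and 3 did without WT day 10 replicate 2. For fits with 1 library left out, here and in the other comparisons, the share of all genes that passed is not given. Such counts therefore do not show whether the members moved more than other genes. Mmp13 lost its call without any KO day 10 library (-3.89 to -4.10) or WT day 10 replicate 2 (-2.25), and Timp1 without any KO day 10 library (-3.37 to -3.81) or WT day 10 replicate 2 (-1.39). Mmp9 lost it without KO day 10 replicate 1 (-5.99) or 4 (-6.0), and Mmp7 in 22 of the 24 removals. Mmp12 kept its call in 33 of 34 other settings, the exception being the fit to only these 2 groups (-2.51, adjusted p = 0.350 by edgeR), in which no gene at all passed. In each of the 3 fits of FPKM values 1 member passed, Mmp12. The macrophage marker sums were 947 to 1260 CPM in KO and 990, 2318, 2780 and 926 CPM in WT replicates 1 to 4. Of 9 macrophage markers tested, 1 was lower in KO and 0 were higher, where 1.27% of all genes were lower. Cd163 had 0.529, 0.413, 0.968 and 0.626 CPM in KO and 1.47, 32.8, 3.39 and 1.32 CPM in WT, without overlap. Cx3cr1 had 74.1, 81.9, 96.0 and 83.0 CPM in KO and 63.9, 66.5, 93.1 and 44.2 CPM in WT, with overlap. The part of these markers in the day 10 difference of Mmp12 was not tested.

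**Figure D5:**
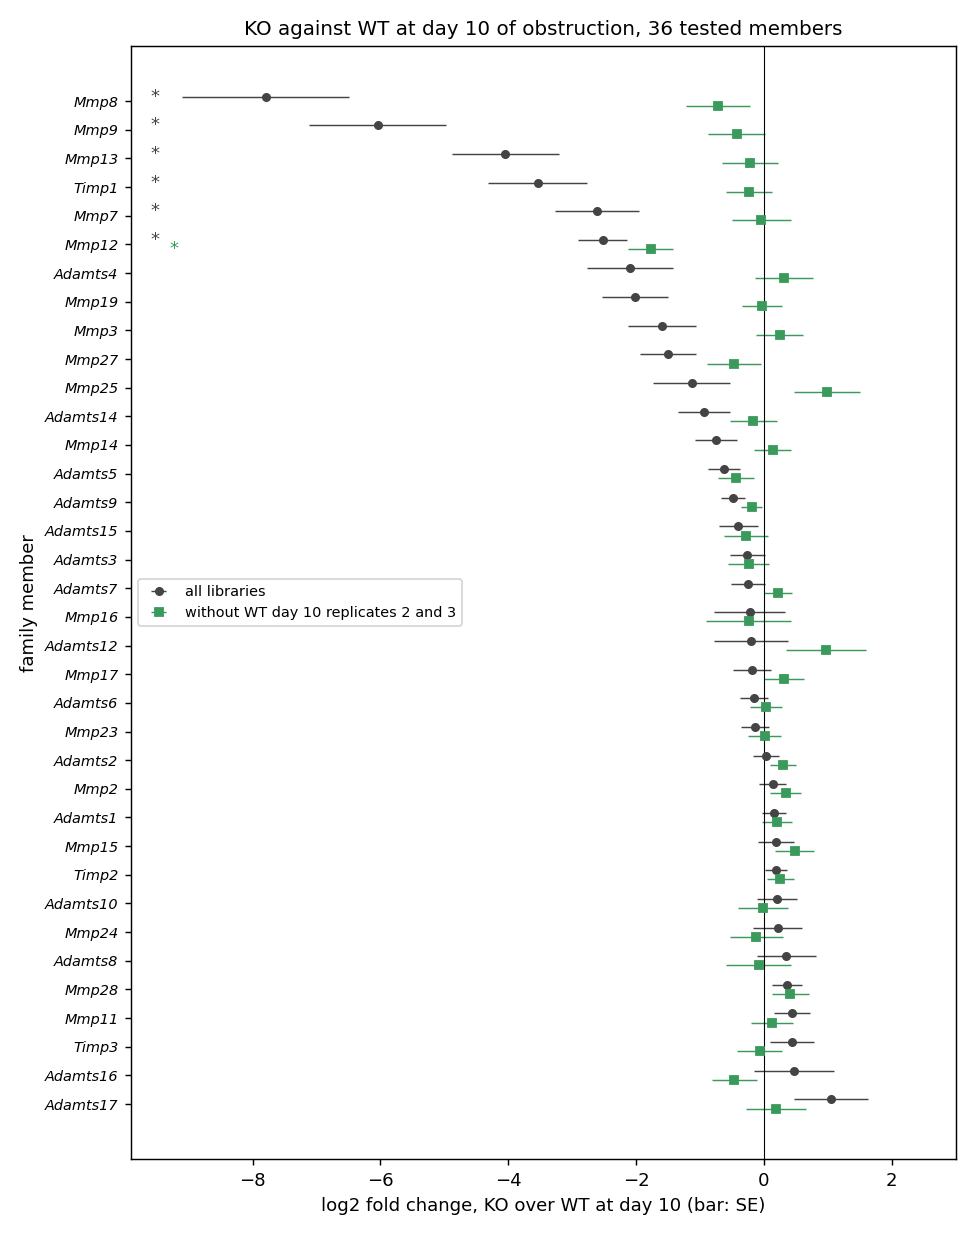
Log2 fold change of KO over WT at day 10 with its SE for the 36 tested members, in the fit with all libraries (dark circles) and without WT day 10 replicates 2 and 3 (green squares), with asterisks for an adjusted p under 0.05. The 6 members lower in KO stand at the top, and Mmp12 is the one marked in both fits.

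Between day 5 and day 10, no member passed in KO with edgeR, where 0.0199% of all genes did, and 10 had an unadjusted p under 0.05 (DESeq2 called 2). Without WT day 5 replicate 4 or WT day 10 replicate 2, 1 passed. The libraries of the 2 days did not overlap for 7 members in KO, where 8.2% of all genes did not, and for 4 in WT, where 6.16% did not. In KO Mmp12 had the lowest adjusted p (2.02 ± 0.40, adjusted p = 0.0790), and its KO libraries at day 10 (6.72 to 9.91 CPM) lay above those at day 5 (1.24 to 2.89 CPM). In the fit without WT day 10 replicates 2 and 3, Mmp12 (2.02 ± 0.34) and Mmp3 (1.43 ± 0.31) were higher at day 10 in KO (adjusted p = 0.0142 and 0.0464 by edgeR), where 0.353% of all genes passed. In WT, 12 members were higher at day 10 than at day 5 and none was lower, where 10.8% of all genes passed (7.86% higher and 2.93% lower). They were Mmp3, Mmp7, Mmp8, Mmp9, Mmp12, Mmp13, Mmp14, Mmp19, Mmp25, Mmp27, Timp1 and Adamts4, with values of 1.24 (Mmp14) to 7.94 (Mmp8). Mmp27 was at 1.37 with an adjusted p of 0.0452, and at 1.26 with 0.0553 with the replicate block.

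Leaving out WT day 10 replicates 2 and 3, none of the 12 passed, and no gene of the whole table did (3 members had an unadjusted p under 0.05). Mmp3 was then at 1.81, Mmp7 at 1.64 and Mmp12 at 1.56 (adjusted p = 0.129, 0.524 and 0.229 by edgeR), and the other 9 were between 0.19 and 0.83. With replicate 2 of WT day 10 alone left out 6 members passed, and the calls of Timp1 (1.62), Mmp13 (2.22), Mmp19 (1.32), Mmp14 (0.92) and Adamts4 (1.01) were lost. With replicate 4 alone left out 19 passed. Without replicate 3 alone Mmp14 (1.03) and Mmp25 (1.78) were lost. Adamts4 also lost its call without WT day 5 replicates 1, 2 or 3 (2.47 to 2.67), Mmp14 without WT day 5 replicates 1 or 2 (1.11 and 1.2), and Mmp27 in 20 of 24 removals.

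The difference between genotypes in the response to obstruction was tested as an interaction. At day 5 no member passed with edgeR, where 0.564% of all genes did (0.0332% larger and 0.531% smaller in KO), and 5 had an unadjusted p under 0.05 (DESeq2 called 1). Adamts5 had the lowest adjusted p, with a difference of -1.58 ± 0.37 (adjusted p = 0.0520). It passed without WT day 10 replicates 2 and 3 (-1.60, adjusted p = 0.00825, where 4.22% of all genes passed), and in 12 of 34 other settings in all. Without WT day 5 replicate 4, 3 members passed, and 1 did without KO day 0 replicate 3, KO day 5 replicate 1 or any WT day 10 library. At day 10, 3 members had a negative difference (KO minus WT response) past the threshold and none a positive one. Of all genes, 3.25% passed (0.133% positive and 3.12% negative). The members were Mmp13 (-5.26 ± 1.18), Mmp9 (-7.83 ± 1.91) and Adamts5 (-1.34 ± 0.37), with adjusted p of 0.0151, 0.0252 and 0.0480 by edgeR. Mmp13 did not rise in KO, where its day 10 change was -0.86 and did not pass, so its difference is not a smaller rise.

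When WT day 10 replicates 2 and 3 were left out, none of the 3 passed, where 1% of all genes did: Mmp13 was at -1.45, Mmp9 at -2.21 and Adamts5 at -1.15 (adjusted p = 0.409, 0.208 and 0.219 by edgeR). Mmp9 lost its call without KO day 0 replicate 4 (-7.43) or WT day 0 replicates 1 (-7.79) or 4 (-7.78). Adamts5 lost it in 17 of 24 removals. Without WT day 10 replicate 1 or replicate 4, 8 and 11 members passed at day 10, and without KO day 0 replicate 4 or WT day 0 replicates 1 or 4, 1 did. For Adamts5 the interaction values at day 5 and day 10, which share the day 0 libraries, were of like size. They combine a day 0 difference of 0.71 ± 0.27 with differences of -0.86 ± 0.25 at day 5 and -0.63 ± 0.25 at day 10, none of which passed alone.

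Genes that act with the family were counted from lists. Against day 0, 39.5% of all genes passed in KO and 56.6% in WT at day 5. At day 10, 54.3% passed in KO (28.3% higher, 26% lower) and 68.1% in WT (37.8% higher, 30.3% lower). Of 17 tested matrix substrates, 15 were higher and 1 lower in KO at both days, and 14 were higher and 1 lower in WT at both days. Their median at day 10 was 1.80 in KO and 3.6 in WT (2.22 in WT without replicates 2 and 3). The collagen I chain Col1a2 rose by 3.63 ± 0.37 in KO and by 4.39 ± 0.39 in WT at day 10 (3.76 without replicates 2 and 3). In KO against WT none of the 17 passed at day 5 or day 10, and the basement membrane linker Nid1 was higher in KO at day 0 (0.87 ± 0.23, adjusted p = 0.0315 by edgeR). Of the 7 tested genes of plasminogen activation, 4 were higher and 1 lower in KO at day 10, and 5 were higher and 1 lower in WT. Among them the urokinase receptor Plaur was lower in KO than in WT at day 10 (-2.35 ± 0.51, adjusted p = 0.0203, and -0.08 without WT day 10 replicates 2 and 3).

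Of 17 tested other inhibitors and regulators, 7 were higher and 2 lower in KO and 8 were higher and 3 lower in WT at day 10. The share of this list that passed did not exceed that of all genes (54.3% in KO and 68.1% in WT). Among them Thbs2, a matricellular protein that aids clearance of MMP2, rose by 3.86 ± 0.29 in KO and by 4.18 ± 0.30 in WT, and the clearance receptor Lrp1 rose by 1.87 ± 0.30 in KO and by 3.47 ± 0.32 in WT (2.57 without WT day 10 replicates 2 and 3). The Lrp1 rise was smaller in KO (-1.60, adjusted p = 0.0333, and -0.70, 0.439, without WT day 10 replicates 2 and 3). Adamtsl4, an ADAMTS-like protein without a protease domain, was lower in KO than in WT at day 10 (-1.40 ± 0.33, adjusted p = 0.0301 by edgeR, and -0.31 without WT day 10 replicates 2 and 3). Its difference in response at day 10 (KO minus WT) passed with (-2.27, 0.0123) and without (-1.19, 0.0394) those libraries (adjusted p by edgeR). That value combines the genotype differences at day 10 and at day 0, and the day 0 difference is not given here. Of 12 tested activators and inducers, 4 were higher and 5 lower in KO and 5 higher and 6 lower in WT at day 10. The proprotein convertase Pcsk6 fell by 2.80 ± 0.34 in KO and by 3.20 ± 0.34 in WT, and the disintegrin protease Adam12 rose by 2.76 ± 0.41 in KO and by 4.03 ± 0.44 in WT (3.19 without those replicates). Adam8, a leukocyte disintegrin protease, was lower in KO than in WT at day 10 (-2.99 ± 0.61, adjusted p = 0.0165, and -0.11 without WT day 10 replicates 2 and 3). Of 6 tested other secreted or membrane metalloproteases, 1 was higher and 3 lower at day 10 in each genotype. The procollagen C-proteinase Bmp1 rose by 2.36 ± 0.33 in KO and by 4.05 ± 0.36 in WT (3.27 without them), a smaller rise in KO (-1.69 ± 0.46, adjusted p = 0.0429 by edgeR, and -0.90, 0.234, without WT day 10 replicates 2 and 3), and the neutral endopeptidase Mme fell by 1.01 ± 0.31 in KO.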

How the data were processed

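The authors deposited raw counts per gene and FPKM per gene for 24 kidney libraries. Per the labels' protocols, TRIzol RNA (1 ug) went into TruSeq stranded mRNA libraries, and the submitters' processing notes name bcl2fastq 2.16, STAR 2.5, Cufflinks and mm9. The counter, the annotation and its strand setting are not given in the sources used here. Groups, days and replicate numbers come from the labels.

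The members and the gene lists were chosen with earlier results of these data known. Deposited counts were tested with edgeR 4.0.16 in R 4.3.3 (filterByExpr on 6 groups, minimum count 10 and total 15; TMM; quasi-likelihood, robust; 6 group means, 24 libraries, 18 residual df). Benjamini-Hochberg adjustment ran over 15080 genes in each of 11 comparisons at 0.05, and an SE is the log2 fold change divided by the square root of F. Where a group pooled 1 to 3 counts, the ratio has a 95% counting interval, and where it had 0, a floor of 3 counts per group was used. FPKM served for levels between genes. The fit was tested on simulated counts for KO against WT at day 10 (14986 genes), where it recovered 56.7% of genes changed 2-fold, 98.5% of those changed 4-fold and 100% of those changed 8-fold, with 13 false calls. The simulated libraries shared 1 mean per gene, apart from the genes changed in KO at day 10. None stood apart as WT day 10 replicates 2 and 3 do, so these rates cannot be carried over to the measured comparison. The replicates' counts differed by more than sampling noise in every pair.

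Named members were Timp1 to Timp4, Mmp2, 3, 7, 8, 9, 12, 13 and 14, Adamts1, 2, 4 and 5, members past the threshold between genotypes, and up to 8 others per direction with the lowest adjusted p. Motifs were searched on both strands. Same-number libraries correlated over 0.1 in all 4 pairs in their deviations from group means between KO and WT libraries at day 10 (0.141 to 0.306) and between the obstructed WT days (0.105 to 0.361), and in no other comparison of 2 groups, so blocked values stand beside these. Other settings were RLE factors, no count filter, a filter at 1 CPM reached by 8 libraries, DESeq2 1.42.0, limma 3.58.1 with log2(FPKM + 1) or log2(FPKM + 0.1) for genes reaching an FPKM of 1 in 4 libraries, and log2(FPKM + 1) unfiltered, only the groups compared, the replicate block, each library left out, and WT day 10 replicates 2 and 3 left out together.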

Additional observations from a re-analysis of the deposited data

Results flagged for a closer look

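Libraries within groups of 4 were checked by Dixon's test at 95%. In 10 of 96 member and group combinations, the gap of 1 library to the nearest other was over 0.829 of the group's range. Chance gives about 5% for normally distributed values. That share does not hold for values from counts near 0, so the number of flags does not show an excess. In WT at day 10, replicate 2 had 1385 CPM of Timp1, against 33.2 to 197 CPM in the others, and 92.4 CPM of Adamts4, against 5.26 to 16 CPM. In KO at day 10, replicate 3 had 17.9 CPM of Mmp3, against 10.2 to 11.2 CPM, and 1.51 CPM of Mmp13, against 2.47 to 2.54 CPM. Replicate 1 of that group had 0.118 CPM of Timp4, against 0.0538 to 0.0590 CPM, a matter of 1 or 2 counts.

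At day 0, KO replicate 2 had 2054 CPM of Timp3, against 2697 to 2796 CPM in the others. KO replicate 4 had 1.64 CPM of Mmp9, against 0.716 to 0.773 CPM, and 0.0780 CPM of Mmp7 (1 count) where the others had 0. This library also had the highest podocyte marker sum (843 CPM, against at most 504 CPM elsewhere). WT replicate 3 had 0.359 CPM of Mmp9 (4 counts), against 0.255 to 0.259 CPM (3 counts each). WT replicate 4 had 0.0859 CPM of Mmp8 (1 count) where the others had 0.

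The response at day 10 differed between genotypes by an interaction test for Adamts5 (-1.34), Mmp9 (-7.83) and Mmp13 (-5.26), with adjusted p of 0.0480, 0.0252 and 0.0151 by edgeR. The values without WT day 10 replicates 2 and 3 were -1.15, -2.21 and -1.45, and none passed.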

How the results depend on the processing

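The numbers of members past the threshold against day 0 kept within 1.5 times in every setting tried (leaving out 1 library gave 22 to 26 in KO and 24 to 28 in WT at day 5, and 26 to 28 in KO and 32 to 33 in WT at day 10). For KO against WT at day 0 (0), DESeq2 and log2(FPKM + 0.1) gave 1, the 2 groups alone 5, without WT day 10 replicates 2 and 3 5, and leaving out 1 library 0 to 1. At day 5 (1), log2(FPKM + 1) with and without filter and the 2 groups alone gave 0, and leaving out 1 library 0 to 6. At day 10 (6), each FPKM fit and the removal of both WT libraries gave 1, the 2 groups alone 0, the replicate block 2, and leaving out 1 library 2 to 14. For day 10 against day 5 in WT (12), log2(FPKM + 1) gave 6, log2(FPKM + 0.1) 5, unfiltered 3, the 2 groups alone and without both libraries 0, and leaving out 1 library 6 to 19. In KO (0), DESeq2 and the removal of both gave 2, the 2 groups alone and the block 1, and leaving out 1 library 0 to 1. For the interaction at day 5 (0), the stricter filter, DESeq2, the 4 groups alone, the block and the removal of both gave 1, and leaving out 1 library 0 to 3. At day 10 (3), DESeq2 gave 9, the FPKM fits, the 4 groups alone and the removal of both 0, and leaving out 1 library 1 to 11. The share of all genes that passed in each of these settings is not given beside these counts. They therefore do not show whether the members moved more than other genes.

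Over 162 results of single members (133 past the threshold), 5130 values kept direction and side, 255 fell short, 27 newly passed and 18 changed sign, none of these 18 past the threshold. The 18 were KO against WT at day 5 for Mmp7, Mmp8 and Timp1, which spanned -0.0975 to 0.347, -0.416 to 0.0907 and -0.153 to 0.451 with 1 library out; at day 10 without both WT libraries for Adamts4 (0.32), Mmp14 (0.14), Mmp3 (0.25) and Timp3 (-0.062); the day 5 interaction of Mmp9 (0.26 on both FPKM + 1 fits, 0.067 on FPKM + 0.1); and the day 10 interaction of Mmp7 (0.19 with the block, 2.37 without both, -0.678 to 1.73 with 1 library out). FPKM fits moved the median of all genes by up to 0.57, for day 5 against day 0 in WT. Where not shown by the construction, the cause was not tested. The 10 untested members had at most 13 counts in any library except Mmp10, so smaller differences in them were not detectable at this depth. Where replicate numbers did not pair the libraries, the replicate block gave calls for Timp3 in KO at day 5 (adjusted p = 0.0369), Mmp12 in KO between the obstructed days (0.0132), Adamts5 in the day 5 interaction (0.0317) and Mmp14 and Mmp19 in the day 10 interaction (0.0461 and 0.0351). It ended those of Mmp17 in WT at day 5 (0.0578) and Mmp9 in the day 10 interaction (0.0579 by edgeR). Beside these and the blocked values in the results it changed no other member's call.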
